A study of Mus musculus with 19 samples.

Results

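The 84 genes described here are named as protein parts of the cytoplasmic ribosome. They are all rows of a table of 34432 mouse genes whose symbol is Rpl or Rps followed by digits and at most one of the endings a, l, x, y or al, together with Rpsa, Rplp0, Rplp1, Rplp2 and Rps27rt; pseudogenes marked -ps, the Rps6k kinases and Rps27l were left out. The choice rests on names alone, so it includes Rps4l, Rpl6l and Rpl32l, which are typed as pseudogenes in GENCODE vM21. It takes in 32 genes named for the small subunit and 52 for the large subunit, on 19 chromosomes, with 14 of the genes on chromosome 7. A few ribosomal proteins carry other symbols, such as Fau and Rack1, and are given separately.

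RNA was polyadenylated RNA from whole bone marrow of untreated 8-week-old mice, on a background given as C57/BL6. DKO marrow (n = 4) carried floxed Cdk8 alleles, Vav-iCre and the Cdk19 null allele. CDK8KO marrow (n = 4) carried floxed Cdk8 and Vav-iCre, CDK19KO marrow (n = 4) the Cdk19 null allele alone, VAV marrow (n = 4) the Vav-iCre transgene alone, and WT marrow (n = 3) none of these. Vav-iCre produces Cre recombinase in blood cells, so other cells of the marrow keep Cdk8, whereas the Cdk19 null allele is present in every cell. CDK8 and CDK19 are paralogous kinases of the Mediator complex, which connects transcription factors with RNA polymerase II. VAV is the control for DKO and CDK8KO, and WT the control for CDK19KO.

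A ribosome is built from ribosomal RNA and one copy of nearly every ribosomal protein, so cells make these proteins in matched amounts, and their mRNAs are among the most abundant in dividing cells. Many of these mRNAs are short and begin with a run of pyrimidines, the TOP motif, through which mTOR and LARP1 adjust their translation and stability. Blood formation is sensitive to their supply: loss of 1 copy of several of the genes causes Diamond-Blackfan anemia in people, and free Rpl5 and Rpl11 bind Mdm2 and thereby stabilise p53.

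In the knockout check, Cdk19 stood at 1173 ± 43.1 normalized counts in DKO and 1091 ± 62.5 in CDK19KO libraries, against 3668 ± 525 in VAV and 3157 ± 99.7 in WT (SD). Cdk8 stood at 798 ± 62 in DKO and 1013 ± 249 in CDK8KO, against 994 ± 230 in VAV (limma, log2 fold change 0.02 ± 0.17, SE, adjusted p = 0.976 for CDK8KO), so the summed level of Cdk8 does not check the deletion of floxed exons, which are not named in the sources used here; CDK8KO and DKO below mean the libraries labelled so. Marker genes of blood cells were present in every library: late neutrophil markers took 2.96% to 5.96% of reads, B cell markers 0.0495% to 0.230% and erythroid markers 0.125% to 3.59%. Their presence alone does not tell marrow from other tissues that hold these cells. Libraries held 14881701 to 33010241 reads. CDK8KO replicate 1 and VAV replicate 3 were richest in erythroid transcripts (3.59% and 3.25% of reads, against at most 1.51% elsewhere), and CDK19KO replicate 4 and DKO replicate 4 in skeletal muscle transcripts (0.0808% and 0.0213%). VAV replicate 1 stood apart in the ribosomal protein genes themselves, described with the results. The labels do not say that the libraries of a group come from separate animals, so p-values measure the spread between libraries. In whole marrow, fewer cells of a type and less RNA per cell cannot be told apart.

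The start regions of 7 genes named in the results below are shown, although those results do not use the sequences. Rpl5 is the gene called, and Rpl11 is its partner in binding Mdm2. Rps18 followed the common movement of the family most closely, and Rpl4 and Rpl28 hardly followed it. Rps27 is shown with its retrogene Rps27rt. Each line gives 60 bases from RefSeq (GRCm38.p6), 5′ to 3′ on the gene's strand, with the start site after base 30. Capitals mark the longest run of C and T that touches the 20 bases on either side of the start.
Rpl5 (chr5:107900498-107900557, plus strand): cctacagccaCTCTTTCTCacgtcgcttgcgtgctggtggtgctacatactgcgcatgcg
Rpl11 (chr4:136053364-136053423, minus strand): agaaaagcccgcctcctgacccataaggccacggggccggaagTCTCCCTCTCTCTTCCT
Rps18 (chr17:33955636-33955695, minus strand): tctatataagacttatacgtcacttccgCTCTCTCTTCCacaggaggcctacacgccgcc
Rpl4 (chr9:64173357-64173416, plus strand): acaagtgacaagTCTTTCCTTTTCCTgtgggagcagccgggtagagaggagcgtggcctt
Rpl28 (chr7:4792935-4792994, plus strand): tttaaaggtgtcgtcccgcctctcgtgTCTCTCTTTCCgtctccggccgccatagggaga
Rps27 (chr3:90213619-90213678, minus strand): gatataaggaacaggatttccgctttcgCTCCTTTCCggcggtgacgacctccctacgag
Rps27rt (chr9:114982710-114982769, minus strand): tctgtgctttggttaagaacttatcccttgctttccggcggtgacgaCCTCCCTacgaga

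Among the 62 of 84 genes with a RefSeq start region, 31 (50%) had such a run of at least 8 bases, compared with 3381 of 16647 other protein-coding genes (20.3%). The run measured 9 bases in Rpl5, 11 in Rps18 and Rpl28, 14 in Rpl4 and 17 in Rpl11. The windows of Rps27 and Rps27rt share an unbroken stretch of 29 bases, which in Rps27 begins inside the pyrimidine run and in Rps27rt begins at its annotated start. In the 250 bases before and 50 after the start, CCGGAAG, the core recognised by ETS factors, was found on either strand in 22 of the 62 (35.5%) and in 12.2% of the other genes. CACGTG, the E box bound by Myc, was found in 5 (8.07%) and 8.09%, a like share. TATAAA in the 50 bases before the start was found on the gene's strand in none of the 62 and in 3.59% of the others. In Rplp0, Rpl36a and Rps2 it lies just after the RefSeq start. Counts of runs and motifs thus depend on where that start is placed, which for Rps10 is 769 bases from the GENCODE vM21 start. These matches are descriptions of letters, not of binding.

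Of the 84 genes, 79 averaged at least 10 normalized counts over the 19 libraries and were tested (32 small-subunit and 47 large-subunit genes), in a fit across all 13976 genes that passed the same filter. The share of reads on the 84 genes was 2.31%, 1.95%, 2.57% and 2.36% in the DKO libraries and 2.63%, 2.29%, 2.34% and 2.73% in the CDK8KO libraries. In the CDK19KO libraries it was 2.54%, 2.86%, 2.60% and 2.73%. The controls stood at 1.62%, 2.02%, 2.53% and 2.56% in VAV and 2.82%, 2.46% and 2.49% in WT. The ranges of all 5 groups overlapped, and VAV replicate 1 was the lowest of the 19 libraries.

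**Figure D1:**
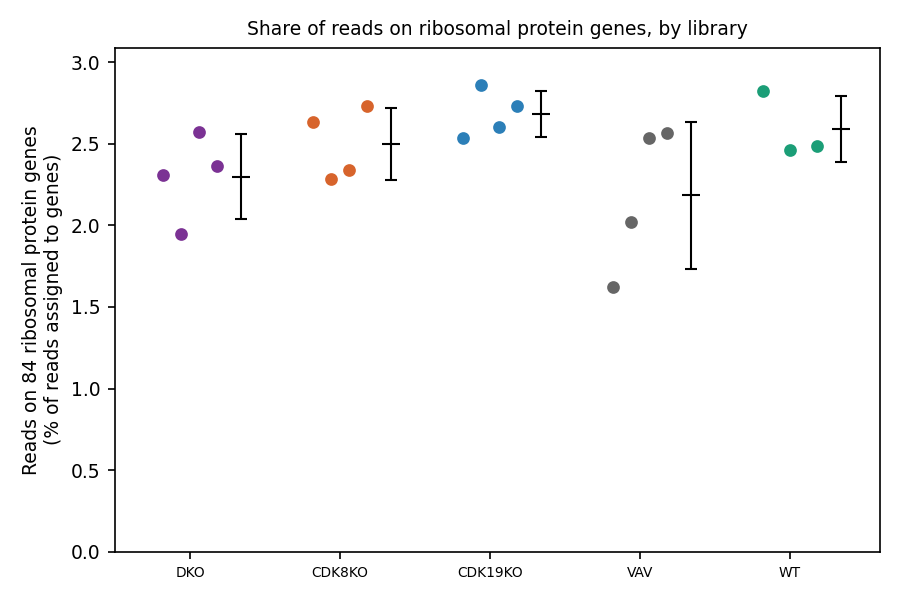
Share of reads assigned to genes that fall on the 84 ribosomal protein genes (y axis, percent) in each library (points) of the 5 genotypes, with the mean and SD to the right of the points. VAV replicate 1, at 1.62%, is the lowest of the 19 libraries and the VAV group is the widest.

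Levels per length differed over a wide range although the proteins are needed in near-equal amounts. The median of the tested genes was 374 reads per kilobase of transcript per M reads, with 404 for the small subunit and 348 for the large subunit. Rpl41, the smallest protein of the ribosome, was highest per length at 1531, followed by Rps7 at 1096 and Rps25 at 975. Rps4l was lowest at 2.33, then Rpl12 at 9.40, Rps27 at 12.3, Rpl5 at 23.3 and Rps20 at 29.3. The annotated transcripts of Rps20 (3706 bases) and Rpl5 (2045 bases) are long for this family, whose median is 681 bases, which lowers any value per length. Assignment of reads is uncertain for most of the family, because 58 of the 84 genes share at least 50% of their 31-base words with other annotated genes. In normalized counts Rpsa, the laminin receptor protein of the small subunit, led with a mean of 29356, and 74 of the 79 tested genes averaged at least 1000.

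The genes varied together from library to library. The first principal component of the 79 genes' log2 levels took 70.6% of their variance over the 19 libraries, the second took 9.20%, and 78 of the 79 genes pointed the same way on the first. Without VAV replicate 1 the first component still took 55.8%. The spread lay mostly within genotypes, which held 72.0% of the summed squares, leaving 28.0% between them. This split makes no allowance for the number of groups. Group means differ somewhat even without a genotype effect, so the 28.0% does not measure one. In DKO replicate 2 and in VAV replicate 1, none of the 79 genes stood above its own mean over the libraries, whereas 76 did so in CDK8KO replicate 1 and 74 each in VAV replicate 3 and WT replicate 1. VAV replicate 1 was the lowest library for 68 of the 79 genes. The median SD between libraries of a group (log2 levels) was 0.41 in VAV for these genes and 0.28 for all genes tested, but 0.23 and 0.34 in CDK8KO and 0.14 and 0.19 in WT.

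**Figure D2:**
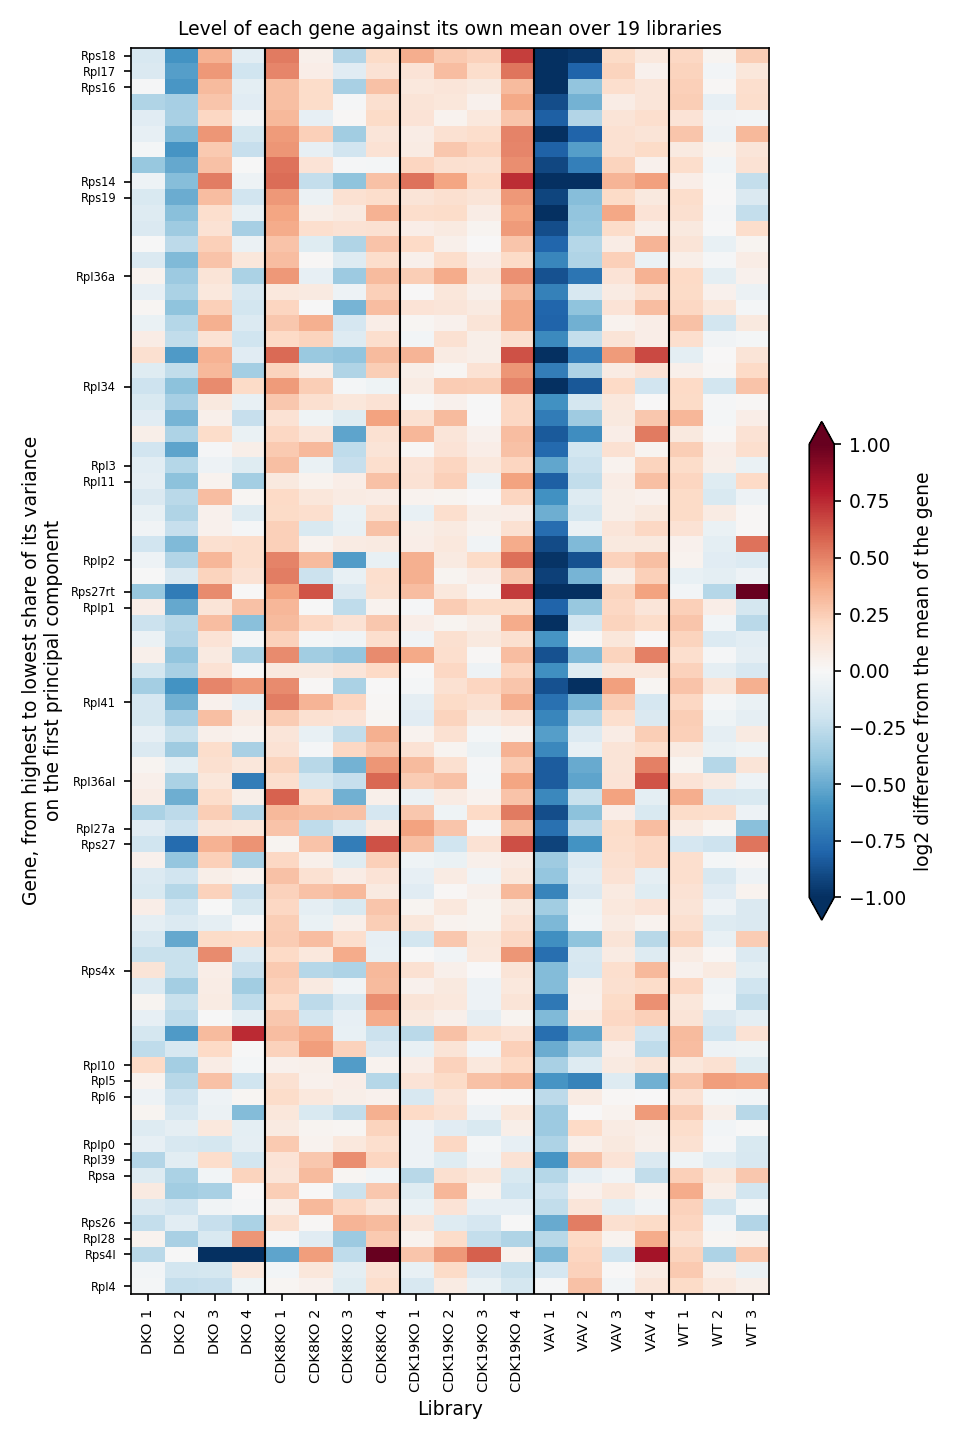
Log2 level of each tested ribosomal protein gene (rows) in each library (columns, grouped by genotype) as the difference from the gene's own mean over 19 libraries; red is higher and blue lower, and the scale ends at 1 in either direction, with labels on genes named in the text. Most rows change colour together, with VAV replicate 1 and DKO replicate 2 blue nearly throughout, while Rpl4 and Rps4l, near the bottom, do not follow.

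Rps18 had 95.5% of its variance on the common component, Rpl17 95.2% and Rps16 94.4%. For 61 of the 79 genes the share was at least 50%, and for 9 it was under 25%. Among those 9 were Rpl4, Rps4l, Rpl28, Rps26 and Rpsa, named here after their values were seen. Rpl4, a large-subunit protein that lines the exit tunnel, had 0.391%. Its levels were 18045, 15550, 15638 and 17746 normalized counts in DKO, 18565, 18891, 16857 and 20741 in CDK8KO, 16437, 19429, 17449 and 16210 in CDK19KO, 18219, 22400, 17973 and 19930 in VAV, and 20928, 19660 and 19042 in WT. VAV replicate 1, lowest for most of the family, was thus in the middle of the range for Rpl4. Rpl28, which had 5.44%, stood at 5794 ± 1380 in DKO, 5532 ± 989 in CDK8KO, 5420 ± 860 in CDK19KO, 6093 ± 1122 in VAV and 5973 ± 312 in WT (SD). The gene with the narrowest spread was Rpl6, with an SD of 0.12 over the 19 libraries (log2 levels), and the widest was Rps27rt at 0.78, against a median of 0.28 for the family and 0.31 for all genes tested.

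In some libraries the common movement was larger for short mRNAs. In VAV replicate 1 the median difference from each gene's mean (log2) was -0.93 for the 9 genes with transcripts of up to 450 bases, -0.80 for the 21 between that and 600 bases, -0.65 for the 27 up to 900 bases, and -0.44 for the 22 longer ones. In CDK19KO replicate 4 it was 0.44, 0.32, 0.22 and 0.14 in the same order of length. The same order held in VAV replicate 2 (-0.47, -0.35, -0.25 and -0.15) and DKO replicate 2 (-0.42, -0.36, -0.30 and -0.26). It also held in VAV replicate 3, CDK8KO replicate 4 and CDK19KO replicate 1. The remaining libraries did not share it: the values were 0.11, 0.20, 0.17 and 0.19 in WT replicate 1. In CDK19KO replicate 2 they were 0.10, 0.11, 0.15 and 0.15. Outside the family, 112 coding genes with transcripts of at most 600 bases and a mean of at least 500 normalized counts stood at -0.39 in VAV replicate 1, and 2347 coding genes over 4000 bases at 0.12. In CDK8KO libraries these other short mRNAs stood at 0.18, 0.15, 0.02 and 0.17, and in DKO libraries at -0.05, -0.13, 0.05 and -0.15. Their part in the results on ribosomal protein genes was not tested; family medians with their level as a covariate are given with the comparisons below.

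**Figure D3:**
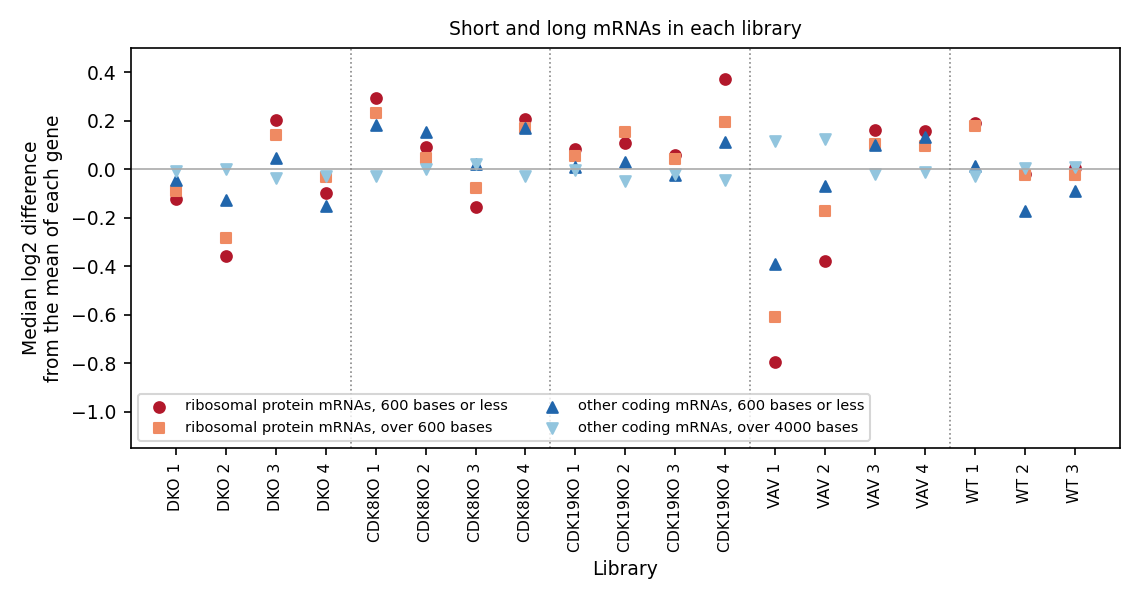
Median log2 difference from each gene's own mean (y axis) in each library for ribosomal protein mRNAs of at most 600 bases (30 genes) and over 600 bases (49 genes), and for other coding mRNAs of at most 600 bases (112 genes) and over 4000 bases (2347 genes). The short ribosomal protein mRNAs lie furthest from 0 in VAV replicate 1, at -0.80, where the other short mRNAs are at -0.39 and the long ones at 0.12.

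The loss of both kinases was compared with the Cre control, DKO against VAV. None of the 79 ribosomal protein genes passed the test (limma, adjusted p under 0.05), in a comparison in which 1.52% of all genes did, and edgeR and DESeq2 called none of them either. At an unadjusted p under 0.05 there were 3 genes, or 3.80% of the 79, beside 15.7% of all genes. Leaving out 1 library gave 1 (without VAV replicate 2 or DKO replicate 3) to 11 (without VAV replicate 3). The share of all genes in those fits is not given here, so these counts show only how far the number moved. The median log2 fold change of the family was 0.10, beside -0.01 for all genes, with 56 genes above 0 and 23 below. The highest were Rps27rt (0.54 ± 0.46, SE, adjusted p = 0.6), Rpl34 (0.52 ± 0.24, adjusted p = 0.308) and Rps14 (0.47 ± 0.35, adjusted p = 0.53). The lowest were the pseudogene-typed Rps4l (-0.74 ± 0.37, adjusted p = 0.337), Rps26 (-0.31 ± 0.16, adjusted p = 0.363) and Rpl4 (-0.23 ± 0.10, adjusted p = 0.287). Rps26, which lies at the mRNA exit channel, was even across the DKO libraries at 4361, 4802, 4392 and 4132 normalized counts, against 3625, 7367, 5756 and 5888 in VAV. Without VAV replicate 1 the family median was -0.09, and with late neutrophil markers as a covariate -0.02, so its sign changed under both; it was 0.12 with the short mRNAs outside the family as a covariate, 0.01 without DKO replicate 3 and 0.21 without VAV replicate 3.

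CDK8KO against VAV gave the largest positive median of the family, 0.27 beside 0.00 for all genes, with 74 of 79 genes above 0. No gene passed the adjusted test in limma, edgeR or DESeq2, and in limma 0% of all genes did. At an unadjusted p under 0.05 there were 20 genes, all higher in CDK8KO, or 25.3% of the 79, beside 8.31% of all genes. That count rested on single libraries: it was 5 (6.33%, beside 4.75% of all genes) without VAV replicate 1 and 40 when VAV replicate 3 or 4 was dropped, while dropping VAV replicate 2 gave 12 and dropping CDK8KO replicate 1 gave 11. It was 7 (8.86%, beside 3.27%) with only the groups compared in the fit, 6 with erythroid markers as a covariate and 2 (2.53%) with the short mRNA covariate. Counts without a share of all genes beside them show only how far the number moved and are no result about the family. Small-subunit genes had a median of 0.30 and large-subunit genes of 0.25. The 3 with the largest values were Rps27rt (0.95 ± 0.46, SE, adjusted p = 0.586), Rpl34 (0.66 ± 0.24, adjusted p = 0.586) and Rps18 (0.61 ± 0.27, adjusted p = 0.586), a protein of the head of the small subunit.

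Rps18 had 6182, 4448, 3511 and 4904 normalized counts in CDK8KO, against 1761, 2187, 4908 and 4620 in VAV. Rpl34, a large-subunit protein, had 2635, 2320, 1928 and 1900 in CDK8KO, against 862, 1088, 2245 and 1717 in VAV. In both genes VAV replicates 1 and 2 lay below every CDK8KO library and VAV replicate 3 among them, while VAV replicate 4 lay among them for Rps18 and below them for Rpl34. Without VAV replicate 1 the family median was 0.12, and with the short mRNAs outside the family as a covariate it was -0.03. The lowest members were Rpl28 (-0.14 ± 0.17, SE, adjusted p = 0.804), Rpl4 (-0.06 ± 0.10, adjusted p = 0.848) and Rpl10 (-0.05 ± 0.14, adjusted p = 0.917).

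CDK19KO against WT gave a family median near 0. No gene passed the test in limma, edgeR or DESeq2, beside 0.0215% of all genes in limma, and none had an unadjusted p under 0.05, beside 3.07% of all genes. The median was 0.08, beside 0.00 for all genes, with 59 genes above 0. Rps14, the small-subunit protein whose human counterpart lies in the region lost in 5q- syndrome, had 4432, 3999, 3498 and 5076 normalized counts in CDK19KO, against 3194, 3045 and 2584 in WT (0.52 ± 0.37, SE, adjusted p = 1). Rplp2 stood at 0.37 ± 0.29 and Rpl27a at 0.34 ± 0.21, and at the other end Rpsa at -0.25 ± 0.14, Rpl4 at -0.20 ± 0.11 and Rpl28 at -0.15 ± 0.18 (SE, adjusted p = 1 for each). For Rps14 every CDK19KO library lay above every WT library, and the difference still did not pass the test. That fit used a spread shared by all 5 groups. The median SD of the family between libraries of a group was 0.41 in VAV, against 0.14 in CDK19KO and in WT. The count of genes at an unadjusted p under 0.05 came from the same shared fit. Under the 14 other settings, one of which fitted only CDK19KO and WT, no member passed. With short mRNAs outside the family as a covariate the family median was -0.10, and leaving out 1 library gave 0.04 (without CDK19KO replicate 4 or WT replicate 2) to 0.14 (without WT replicate 1).

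DKO against each single loss gave negative medians. DKO against CDK8KO had a median of -0.18, beside 0.00 for all genes, with 76 of 79 genes below 0. None passed in limma, edgeR or DESeq2, beside 1.7% of all genes in limma, and 10 had an unadjusted p under 0.05 (12.7% of the 79, all lower in DKO), beside 16.1% of all genes. Leaving out 1 library gave 4 (without DKO replicate 2) to 18 (without DKO replicate 3), and the share of all genes in those fits is not given here. Rps26 had the smallest p: its DKO libraries, at 4132 to 4802 normalized counts, all lay below the CDK8KO libraries, at 5187 to 6514 (-0.43 ± 0.16, SE, adjusted p = 0.193). Rplp0 likewise stood at 15908, 15109, 14890 and 15814 in DKO, against 20190, 17303, 18130 and 18914 in CDK8KO, without overlap (-0.27 ± 0.11, adjusted p = 0.207). Such separation is not particular to these genes: Rpl7 stood at 15358 to 17343 in DKO and 18097 to 21960 in CDK8KO. How many members, or how many of all genes, separate was not counted in any comparison. The erythroid share of reads moved with this comparison, at 0.295% ± 0.119 in DKO and 1.39% ± 1.48 in CDK8KO (SD, n = 4 each), and the family median was -0.05 with erythroid markers as a covariate, -0.29 with late neutrophil markers and 0.12 with short mRNAs outside the family.

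DKO against CDK19KO had a median of -0.18, beside -0.01 for all genes, with 77 of 79 genes below 0. None passed in limma, edgeR or DESeq2, beside 2% of all genes in limma, and 4 had an unadjusted p under 0.05 (5.06% of the 79), beside 15.6% of all genes. That count was 15 of 79, beside 15.2% of all genes, without DKO replicate 3, 0 without DKO replicate 4, 22 (27.8%, beside 23.2%) with only the groups compared and 17 (21.5%, beside 24.6%) with array weights. The share of all genes without DKO replicate 4 is not given here. The median was -0.07 with erythroid markers and -0.04 with short mRNAs outside the family as a covariate, and -0.29 without DKO replicate 3. Rps4l stood at 31.5, 38.1, 16.8 and 16.5 normalized counts in DKO, against 46.3, 51.8, 58.1 and 39.0 in CDK19KO (-0.97 ± 0.37, SE, adjusted p = 0.199). Rpl3, which forms part of the peptidyl transferase centre, stood at 9714, 8578, 10097 and 9621 in DKO, against 11516, 12156, 11222 and 12158 in CDK19KO (-0.31 ± 0.14, adjusted p = 0.29). The DKO libraries are shared by these 2 comparisons, so their medians are not independent. Erythroid markers took 1.09% ± 0.398 of reads in CDK19KO (SD, n = 4).

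The interaction, the log2 difference DKO minus CDK8KO less the difference CDK19KO minus WT, asks whether loss of Cdk19 acts differently when Cdk8 is floxed with Cre present. Its family median was -0.26, beside 0.00 for all genes, with 73 of 79 genes below 0. None of the 79 passed in limma, edgeR or DESeq2, beside 0.15% of all genes in limma. At an unadjusted p under 0.05 there were 2, Rpl41 and Rpl39 (2.53% of the 79), beside 8.64% of all genes. Leaving out 1 library gave 0 to 8 (8 without DKO replicate 3), and the share of all genes in those fits is not given here. The median was -0.10 with the erythroid covariate and 0.25 with the short mRNA covariate.

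**Figure D4:**
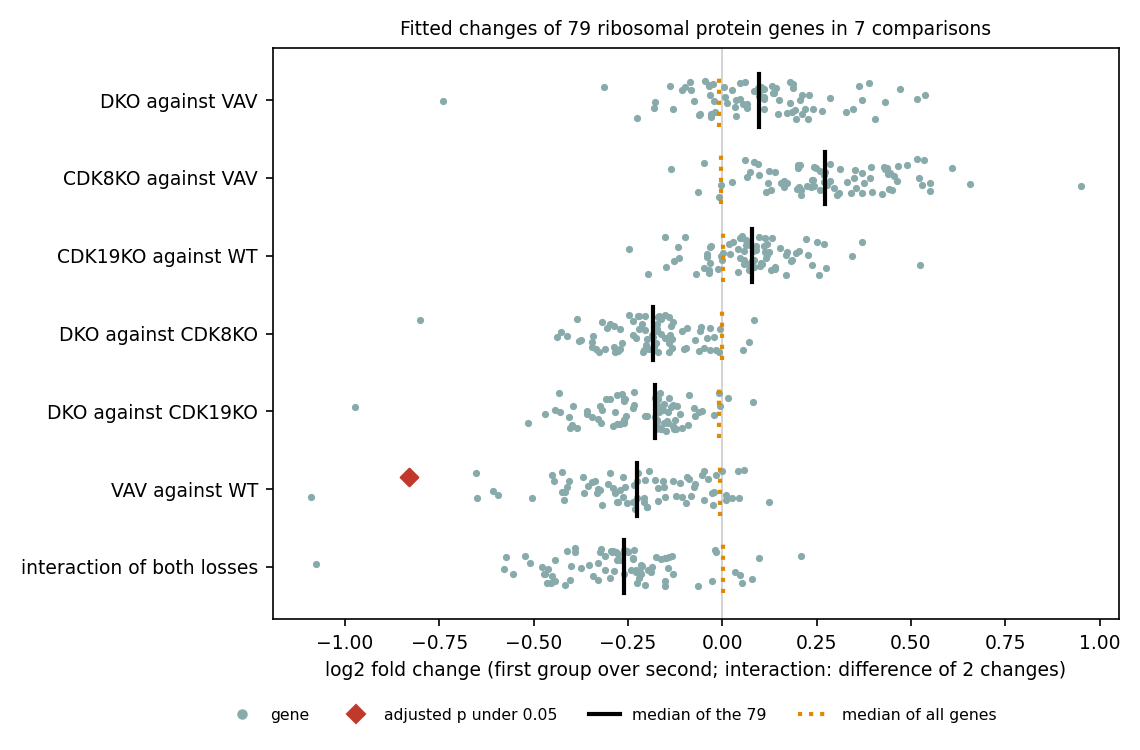
Log2 fold change (x axis) of each of 79 tested ribosomal protein genes (points) in 7 comparisons (y axis), with the median of the 79 as a solid line and the median of all 13976 genes as a dotted line. The family lies to the right of 0 in CDK8KO against VAV (median 0.27) and to the left in the comparisons of DKO with single losses (-0.18 each); Rpl5 in VAV against WT is the only gene called.

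VAV against WT, which asks what the Cre transgene alone goes with, held the only call in the family. Rpl5, a large-subunit protein that carries 5S ribosomal RNA into the ribosome, had 693, 655, 952 and 745 normalized counts in VAV, against 1259, 1388 and 1377 in WT. All 4 VAV libraries lay below all 3 WT libraries, and Rpl5 fell by 0.83 ± 0.15 on the log2 scale (SE, limma, adjusted p = 0.0355). It was 1 of 79 genes called, beside 0.093% of all genes. Another 7 genes had an unadjusted p under 0.05, all lower in VAV, making 8 of 79 (10.1%), beside 14.8% of all genes. That count was 24 (30.4%, beside 21.7%) without VAV replicate 3, 23 (29.1%, beside 12.9%) without VAV replicate 4, 2 or 3 without VAV replicate 1 or 2 or WT replicate 1 or 3, and 40 (50.6%, beside 16.8%) with the short mRNA covariate. For the counts of 2 or 3, the share of all genes is not given here. The family median was -0.23, beside -0.01 for all genes, and 72 of 79 genes were below 0. It was -0.04 without VAV replicate 1, where Rpl5 was at -0.79, -0.12 with the late neutrophil, -0.15 with the erythroid and -0.27 with the short mRNA covariate.

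The Rpl5 call was lost under several settings: edgeR gave an adjusted p of 0.0344 and DESeq2 one of 0.000241, but the adjusted p in limma was 0.226 with only VAV and WT in the fit, 0.140 with late neutrophil markers as a covariate and 0.0518 with B cell markers. The log2 fold change was -0.83, -0.68 and -0.80 in these 3 fits, beside -0.83. Leaving out 1 library at a time gave -0.94 to -0.76 on the log2 scale, with an adjusted p above 0.05 for each of the 3 WT libraries and for VAV replicates 1, 2 and 4. Late neutrophil markers took 4.88% ± 0.96 of reads in VAV (SD, n = 4) and 3.78% ± 0.463 in WT (SD, n = 3); their part in the result was not tested beyond that covariate.

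The group means of Rpl5 in the other genotypes lay between those of these controls. It had 1068, 860, 1279 and 905 normalized counts in DKO, 1159, 1075, 1090 and 856 in CDK8KO, and 1144, 1188, 1274 and 1305 in CDK19KO. It gave the smallest p of the family in DKO against VAV (0.43 ± 0.14, SE, adjusted p = 0.139) and in CDK8KO against VAV (0.46 ± 0.14, adjusted p = 0.586), comparisons that share the VAV libraries with VAV against WT. In DKO against VAV it passed with the erythroid covariate (adjusted p = 0.0208) and without VAV replicate 3 (adjusted p = 0.0486). Rpl5 lies at chr5:107900502-107909005 (GENCODE vM21, GRCm38) and overlaps Fam69a on the other strand; 49.0% of its 31-base words occur in 15 other genes. No strand setting is given in the sources used here, so reads of Fam69a cannot be told apart from those of Rpl5 where they overlap.

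**Figure D5:**
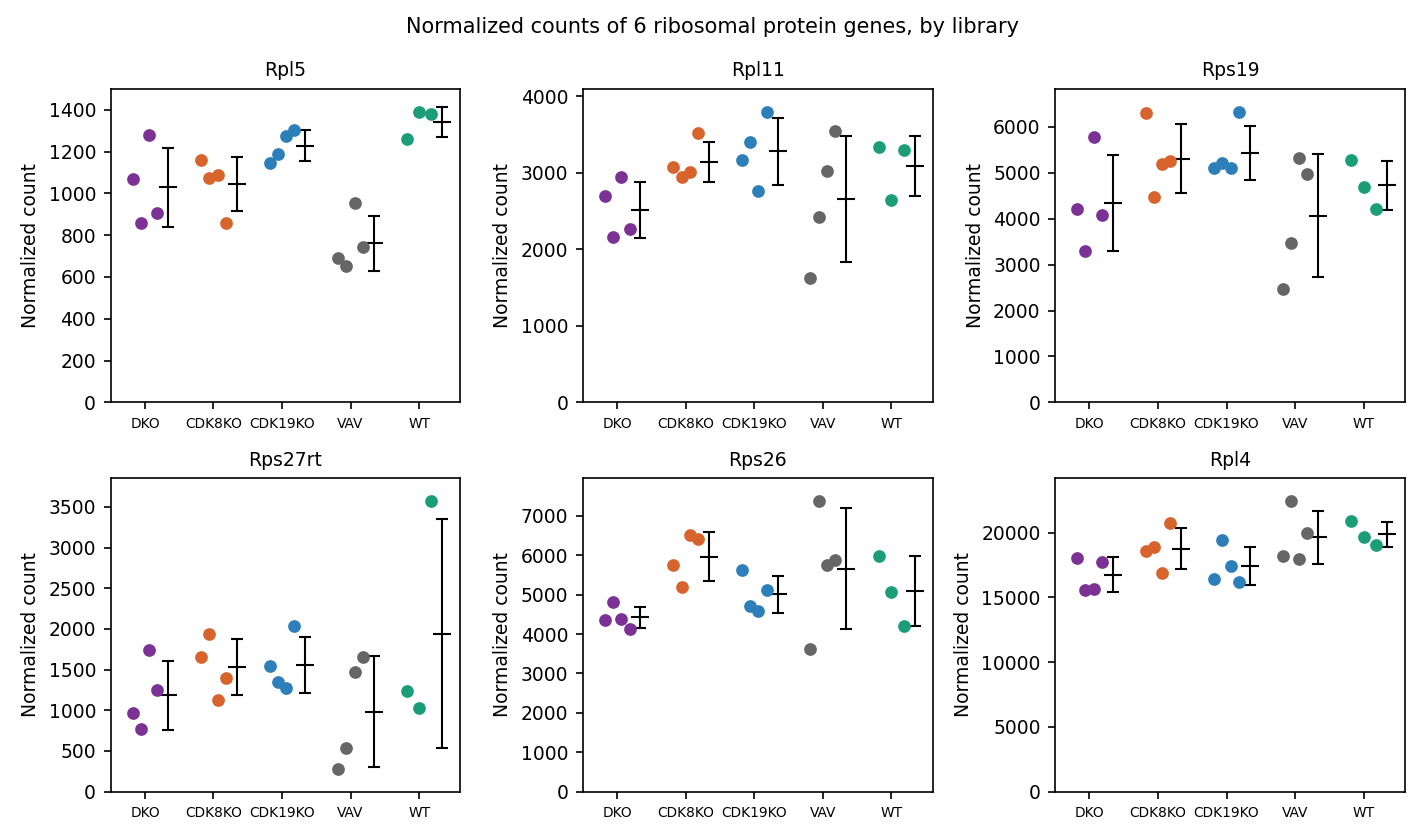
Normalized counts (y axis, from 0) of 6 ribosomal protein genes in each library (points), with the mean and SD to the right, for the 5 genotypes. Rpl5 in VAV (655 to 952) lies below WT (1259 to 1388) without overlap, Rps19 and Rpl11 spread widely in VAV, Rps27rt has 1 WT library at 3568, and Rpl4 keeps a narrow range.

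Rpl11, which binds Mdm2 together with Rpl5 and 5S RNA, did not pass the test in that comparison. It had 1629, 2426, 3020 and 3545 normalized counts in VAV, against 3340, 2643 and 3299 in WT, and the groups overlapped (-0.27 ± 0.20, SE, adjusted p = 0.53). In DKO it had 2695, 2159, 2941 and 2268, and in CDK19KO 3173, 3399, 2758 and 3793 (DKO against CDK19KO -0.38 ± 0.18, adjusted p = 0.315). The 10 genes of the Diamond-Blackfan anemia list, among them Rps19, Rps26, Rpl5 and Rpl11, were all tested. Rpl5 in VAV against WT was the only one called in any comparison. Their median was 0.09 in DKO against VAV, 0.36 in CDK8KO against VAV, 0.05 in CDK19KO against WT, -0.28 in DKO against CDK8KO, -0.25 in DKO against CDK19KO and -0.27 in VAV against WT. Rps19, the gene most often mutated in that anemia, had 4211, 3308, 5788 and 4083 normalized counts in DKO, against 2473, 3471, 5332 and 4984 in VAV, and the groups overlapped.

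The stalk of the large subunit, which recruits elongation factors, is made by Rplp0, Rplp1 and Rplp2. Rplp0 averaged 15430 ± 507 normalized counts in DKO, 18634 ± 1228 in CDK8KO, 17075 ± 1638 in CDK19KO, 16606 ± 2023 in VAV and 16885 ± 1793 in WT (SD). Rplp1 averaged 6958 ± 1532 in DKO, 7045 ± 1181 in CDK8KO, 7643 ± 595 in CDK19KO, 6144 ± 1872 in VAV and 7102 ± 1016 in WT. Rplp2 averaged 1625 ± 301 in DKO, 1670 ± 502 in CDK8KO, 1930 ± 272 in CDK19KO, 1347 ± 607 in VAV and 1485 ± 99.3 in WT. None of the 3 passed in any comparison. Per length Rplp0 and Rplp1 stood close together at 554 and 622 reads per kilobase per M reads, and Rplp2 was lower at 171.

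Several genes have a paralog or retrogene in the table. Rpl10l, a testis form that stands in for the X-linked Rpl10, had no read in any of the 19 libraries, while Rpl10 stood at 3405 to 5874 normalized counts. Rpl39l, another testis form, stood at 0 to 13.8 beside 3380 to 7051 for Rpl39. Rpl3l, the form made in heart and skeletal muscle, stood at 0 to 16.1 in all libraries but CDK19KO replicate 4, which had 41.3 and was the library richest in muscle transcripts. Rpl3 itself stood at 7294 to 12872. Both copies of another pair had reads: the X-linked Rpl36a averaged 1317 ± 225 in DKO, 1536 ± 377 in CDK8KO, 1761 ± 175 in CDK19KO, 1253 ± 513 in VAV and 1480 ± 150 in WT, and the retrogene Rpl36al averaged 873 ± 211 in DKO, 1075 ± 292 in CDK8KO, 1165 ± 137 in CDK19KO, 962 ± 438 in VAV and 1029 ± 66.6 in WT (SD).

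Rps4x, the X-linked small-subunit protein, stood at 4449 to 7535 normalized counts and its copy Rps4l at 16.5 to 78.4. Rps27 and its single-exon copy Rps27rt stood the other way round, with means of 95.4 for Rps27 and 1412 for Rps27rt. Rps27rt had 962, 772, 1741 and 1254 in DKO, 1659, 1938, 1133 and 1398 in CDK8KO, 1550, 1347, 1273 and 2037 in CDK19KO, 276, 542, 1466 and 1656 in VAV, and 1233, 1030 and 3568 in WT. Of their 31-base words 98.7% (Rps27) and 92.7% (Rps27rt) occur in other genes, so how the reads were split between the copies is uncertain. The other 2 untested genes, Rpl6l and Rpl32l, are typed as processed pseudogenes in GENCODE vM21 and reached at most 6.52 and 7.49 normalized counts.

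Few other genes of the pathway passed the same test. Among 7 ribosomal protein genes under other symbols, 19 other TOP mRNAs such as Eef1a1 and Npm1, 45 ribosome biogenesis genes and 14 controllers of ribosome synthesis such as Myc and Mtor, none passed in any of the 7 comparisons. Of 34 translation factors, Eif5, the GTPase activator of start-codon selection, fell in DKO against CDK8KO, at 8823 ± 585 normalized counts in DKO and 12447 ± 2079 in CDK8KO (SD, n = 4 each; -0.48 ± 0.12, SE, limma, adjusted p = 0.0486). Of 78 mitochondrial ribosome genes, Mrpl35 fell in the same comparison, at 505 ± 48.4 in DKO and 772 ± 88.6 in CDK8KO (-0.61 ± 0.11, adjusted p = 0.00657). Beside these single calls, 1 of 34 and 1 of 78, 1.7% of all genes were called there. Neither call was examined under the other settings or with libraries left out. In that comparison the median was -0.23 for the other TOP mRNAs, with 0 of 19 above 0, -0.18 for translation factors, -0.15 for mitochondrial ribosome genes and -0.09 for biogenesis genes, beside -0.18 for the 79 cytoplasmic ribosomal protein genes. In CDK8KO against VAV it was 0.09 for the other TOP mRNAs, 0.10 for translation factors, 0.12 for mitochondrial ribosome genes and 0.00 for biogenesis genes, beside 0.27 for the 79. In VAV against WT it was -0.09, -0.09, -0.13 and -0.25 in the same order, beside -0.23 for the 79.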

How the data were processed

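Libraries were prepared from polyadenylated RNA (Roche Kapa kit) and sequenced as paired ends on an Illumina NovaSeq X, per the labels. Salmon 1.4.0, DESeq2 and mm10 appear in the submitters' processing notes, which state neither their roles nor the DESeq2 version. The table the authors deposited holds a signal per gene, namely its count divided by the size factor of the library; in each column every value (100%) was a whole number of equal steps (tolerance 0.001), so whole reads were recovered. The annotation release, strand setting and filters are not given in the sources used here. GENCODE vM21 gave coordinates, types and lengths (shortest basic principal transcript), and RefSeq the start regions. The members, lists and most tests were chosen with earlier results of these data known.

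Log2(normalized count + 1) was fitted, for the 13976 genes averaging 10 or more, with limma 3.58.1 in R 4.3.3 (trend, 5 groups, no covariate) with Benjamini-Hochberg adjustment in each of 7 comparisons; a fold change on this scale understates changes of low genes. edgeR 4.0.16 and DESeq2 1.42.0 on the recovered reads, other scalings, pseudocounts, filters, covariates and left-out libraries were alternatives. The limma fit was also run on simulated reads for DKO against VAV. Of 100 genes changed by 1 on the log2 scale it recovered 60%, and of 100 changed by 2 it recovered 82%, with 9 false calls. The changed genes were drawn at random from all 13976 genes, and each gene was simulated on its own. These rates therefore do not describe the ribosomal protein genes, most of which are abundant and vary together. Changes as small as the family medians were not simulated. Members named are those called, the 3 highest and 3 lowest in DKO or CDK8KO against VAV and in CDK19KO against WT, paralog pairs, the stalk genes, Rpl5 and Rpl11, and any said to be chosen after seeing values. Others were also named after their values were seen, such as Rpl41, Rps7, Rps20, Rpl17, Rpl6, Rpl7 and Rps21. Rps19 was named for its place in Diamond-Blackfan anemia. Some members of the lists are not reported here by name. At these depths a count of 0 allows up to 3 reads; floors and whole-read checks cover counting error only. Of 25 TOP mRNAs listed, 6 noncoding hosts are not analysed here. All library pairs within a group differed beyond sampling noise (lowest chi-square per degree of freedom 14.7).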

Additional observations from a re-analysis of the deposited data

Results flagged for a closer look

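Of 104 sets of 4 libraries examined, 3 held a library far from its group (Dixon's test, 95% level); chance alone flags about 1 in 20 such sets. Rpl10, the large-subunit protein encoded on the X chromosome, stood at 3405 normalized counts in CDK8KO replicate 3, against 5130 to 5197 in the other CDK8KO libraries. Rplp0, the stalk base, stood at 13598 in VAV replicate 1, against 17406 to 17984 in the other VAV libraries; this is the library that was lowest for 68 of the 79 tested genes. Rpl39l, the testis form of Rpl39, stood at 13.8 in CDK19KO replicate 4, against 8.43 to 8.54 in the other CDK19KO libraries. It averaged 5.11 normalized counts over the 19 libraries, under the minimum of 10 for testing, so these values rest on few reads. Whether the difference exceeds counting error was not tested. CDK19KO replicate 4 was also the library richest in skeletal muscle transcripts and in Rpl3l.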

How the results depend on the processing

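Under the 14 settings other than single left-out libraries, no member passed in the interaction, in CDK19KO against WT or in CDK8KO against VAV. One of these settings, the short mRNA covariate, was chosen after seeing the data. In DKO against VAV, 1 member (Rpl5) passed with the erythroid covariate and without the 2 libraries richest in erythroid transcripts (adjusted p = 0.0208 and 0.0364). In DKO against CDK8KO, 1 (Rpl41) passed with the late neutrophil covariate (adjusted p = 0.0414), and in DKO against CDK19KO, 1 (Rpl3) with only the groups compared in the fit (adjusted p = 0.0424). In VAV against WT the count was 0 with only the groups compared, with the late neutrophil or B cell covariate, and with the 2 muscle-rich libraries left out. It was 2 with the short mRNA covariate (Rpl5, Rps21) and without the libraries richest in erythroid transcripts (Rpl5, Rpl34). Leaving out 1 library gave 0 to 1 members in DKO against VAV and 0 to 1 in VAV against WT.

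Family medians moved beyond the spread between libraries with the short mRNA covariate (-0.026 for CDK8KO against VAV, -0.10 for CDK19KO against WT, 0.12 for DKO against CDK8KO, 0.25 for the interaction) and with the erythroid covariate (-0.049 for DKO against CDK8KO, -0.098 for the interaction). The cause was not tested. The other 92 medians under other settings, and all 61 with 1 library left out, moved by less; among these, DKO against VAV ranged from -0.09 to 0.21. The median share of reads on members over the 19 libraries was 2.53%, and 2.76% with ribosomal proteins of other symbols added. Single genes changed sign more often: without VAV replicate 1, 34 of 79 did in DKO against VAV, 24 in VAV against WT and 14 in CDK8KO against VAV. Among the uncalled genes named for CDK8KO against VAV, Rpl4 ranged from -0.11 to 0.0020 and Rpl10 from -0.14 to 0.10 with 1 library left out.

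Correlations of deviations between same-numbered libraries were -0.14 to 0.31, highest for replicate 4 of DKO and CDK19KO. Differently numbered libraries were not compared, so these values do not settle whether replicate numbers pair libraries. With the replicate block no call changed, Rpl5 in VAV against WT staying at -0.80 (adjusted p = 0.0394).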
